A study of Mus musculus with 10 samples.

Results

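The axoneme is the microtubule core of the sperm tail, and its genes were taken here as those of the scRNA-seq matrix whose symbol begins with Cfap, Dnah, Dnai or Drc and a digit, with Dnal or Rsph, or with Tekt and a digit. This rule uses names alone and found 61 of 28125 genes, all of which also stand in the scATAC-seq matrix of 30670 genes. By role, they comprised 5 outer arm and 10 inner arm dynein heavy chains, 3 light chains, 3 genes of the nexin-dynein regulatory complex, 10 of the radial spokes, 8 of the central apparatus, 5 of the tether and anchors of the inner arms, 5 tektins and 7 other proteins inside the doublets. The other 5 (Cfap36, Cfap58, Cfap97, Cfap157 and the antisense gene Dnah2os) were in none of the role lists. No symbol of Dnai and a digit was in the matrix, which names these intermediate chains Dnaic1 and Dnaic2, outside the rule.

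In a motile axoneme, doublet microtubules surround a central pair. Outer dynein arms drive the beat, inner arms shape its waveform, and the nexin-dynein regulatory complex links neighbouring doublets. Radial spokes pass signals from the central apparatus to the arms, while tektins and other inner proteins line the lumen of the doublets and stabilise them. Male germ cells build a single axoneme after meiosis, in spermatids, and several of its subunits have a paralog that serves the motile cilia of airway, oviduct or ependymal cells instead. Loss of a subunit can give immotile or malformed sperm tails.

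Nuclei of whole testis were profiled for RNA and accessible chromatin together, in wild-type C57BL/6J mice at 11, 17 and 25 days postpartum (dpp) and in mice of 8 weeks labelled Cre or Nfya-CKO, with 1 library per condition and assay. The library labelled Cre, named CreKO in the cell tables, was taken as the Cre/+ control of the study's methods, and 49 scRNA-seq cells carry no library name. In Nfya-CKO (Nfya fl/fl; Stra8-Cre), a Cre driven by Stra8, which acts in spermatogonia, removes exons of the transcription factor gene Nfya that lie between loxP sites, with Cre/+ mice as the control. Levels are means of a population pooled over libraries, as UMIs per 10000 UMIs for RNA and as signal per 1000000 for scATAC-seq, so no value has a replicate and no p-value is given. Populations were spermatogonia (undiff. SpG and diff. SpG), preleptotene cells (pL), early leptotene to zygotene (eL/L/Z), leptotene to early pachytene (L/Z/eP), middle and late pachytene (mP/lP), diplotene (D), round spermatids (RS), elongating spermatids (ES), Sertoli cells, an unknown population, other somatic cells, and a set found in the Nfya-CKO library alone, called here spermatogonia labelled Nfya-CKO.

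The populations draw on different libraries, so stage, age and genotype cannot be told apart in some contrasts. Juvenile wild-type testes gave 92.0% of the 1292 undiff. SpG and 99.7% of the 1761 pL cells, whereas Cre/+ gave 84.5% of the 927 diff. SpG, 77.0% of the 7325 RS and 99.6% of the 1195 ES. The 5705 eL/L/Z cells came mainly from 11 dpp (23.7%), 17 dpp (32.2%) and 25 dpp (42.6%). The 25 dpp library alone gave 93.5% of the 8107 L/Z/eP cells, 70.7% of the 5055 mP/lP cells and 43.3% of the 4145 D cells. The 491 spermatogonia labelled Nfya-CKO all came from that library, in which Nfya itself was not lower (1.11 UMIs per 10000, against 0.456 in undiff. SpG), so it is called by its label; only some exons are deleted and the value covers the whole gene, so it does not check the deletion. Library totals ran from 30227701 to 64967271 UMIs, and 5030 of 39674 cell barcodes occurred in more than 1 scRNA-seq library, without which the pooled matrix gives no values. Markers went with some labels but not all. Those of undifferentiated spermatogonia summed to 13.6 in undiff. SpG and 8.11 in the Nfya-CKO spermatogonia, against 0.994 to 2.20 in the other 8 germ populations. Zbtb16 made 8.74 of the 13.6, and Id4 was highest in mP/lP (1.57, against 0.682 in undiff. SpG). Those of differentiating spermatogonia were highest in pL (9.51), with 6.71 in diff. SpG, 5.17 in undiff. SpG and 4.66 in the Nfya-CKO spermatogonia. Those of leptotene to zygotene were highest in L/Z/eP (8.21), and those of pachytene and diplotene in mP/lP (37.2). Sertoli markers summed to 65.8 in Sertoli cells but also to 42.4 in ES, 27.3 in the Nfya-CKO spermatogonia and 111 in other somatic cells. In the same order, the single gene Clu made 34.1, 31.3, 22.8 and 91.5 of these sums. Leydig markers summed to 187 in other somatic cells. The values of ES and of the unknown population in scATAC-seq rest on only 124 and 54 cells.

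Promoters were examined first, for an RFX-type X-box, which RFX factors bind in ciliary genes, and for CCAAT, the core recognised by NF-Y. RefSeq promoter sequences of build GRCm38.p6, from 250 bases before to 50 after the start, were at hand for 50 of the 61 genes. The X-box pattern used (GT, 2 free bases, CC, 3 free bases, G, 1 free base, AAC), on either strand, occurred in 6 of them (12.0%) against 2.49% of the 27025 genes with such a sequence. The shorter GTTGCC was found in 16 (32.0% against 14.1%), and in 2 genes it overlapped the X-box pattern. Either of the 2 patterns was in 20 of the 50 genes (40.0%, against 15.4% of all genes and 17.6% of those that passed the RNA filter below). CCAAT stood in 23 (46.0%), close to its share of all genes (41.1%). TGTTTAC, a forkhead pattern, was in 4 (8.00% against 4.05%), and GCAGTT, a MYB-type pattern, in 13 (26.0% against 15.5%). A match of letters is a description, not a binding site.

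The 5 X-box matches that lie wholly before the start are shown, because among the 5 patterns searched the share of the X-box had the largest ratio to that of all genes. Capitals mark the pattern, and up to 30 bases on either side are given, read 5′ to 3′ toward the gene (RefSeq, GRCm38.p6). In Cfap206, Cfap44 and Cfap45 the pattern lies on the other strand, so its reverse complement is printed.
Cfap206 (chr4:34730207-34730259, minus strand): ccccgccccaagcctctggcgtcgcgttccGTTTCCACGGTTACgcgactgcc
Cfap44 (chr16:44394742-44394798, plus strand): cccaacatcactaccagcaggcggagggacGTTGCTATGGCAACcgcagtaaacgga
Cfap45 (chr1:172521081-172521129, plus strand): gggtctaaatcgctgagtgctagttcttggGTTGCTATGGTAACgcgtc
Dnah17 (chr11:118129335-118129408, minus strand): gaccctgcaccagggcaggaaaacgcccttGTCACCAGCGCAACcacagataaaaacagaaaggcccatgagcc
Tekt4 (chr17:25471400-25471473, plus strand): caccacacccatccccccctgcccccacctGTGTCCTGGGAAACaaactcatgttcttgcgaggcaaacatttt

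In Cfap206 (a radial spoke base protein), Cfap44 (an inner arm tether) and Cfap45 (a doublet inner protein), the match begins at positions -23, -27 and -19, counted from -1 for the last base before the start. In Dnah17 and Tekt4 it begins farther away, at -159 and -160. A match in Cfap61 and another in Tekt4 cross or follow the start. For CCAAT, the 250 bases before the start of Cfap36 and Drc3 are shown, the first with 3 matches and the second with 2, as examples picked with the values known: both genes were among 11 with lower accessibility in the spermatogonia labelled Nfya-CKO, described later. Of these 11, 7 have a promoter sequence here and 4 of the 7 hold CCAAT (Cfap36, Dnah12, Dnal4 and Drc3), as do 2 of 3 among the 6 genes with higher accessibility and 17 of 40 among the other 44. In the sequences, capitals mark CCAAT or, where it lies on the other strand, ATTGG.
Cfap36 (chr11:29247273-29247522, minus strand): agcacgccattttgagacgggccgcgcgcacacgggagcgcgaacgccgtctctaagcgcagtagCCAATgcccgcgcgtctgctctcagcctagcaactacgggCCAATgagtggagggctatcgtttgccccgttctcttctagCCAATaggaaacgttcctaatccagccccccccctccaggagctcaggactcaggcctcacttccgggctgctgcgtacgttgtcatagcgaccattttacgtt
Drc3 (chr11:60353130-60353379, plus strand): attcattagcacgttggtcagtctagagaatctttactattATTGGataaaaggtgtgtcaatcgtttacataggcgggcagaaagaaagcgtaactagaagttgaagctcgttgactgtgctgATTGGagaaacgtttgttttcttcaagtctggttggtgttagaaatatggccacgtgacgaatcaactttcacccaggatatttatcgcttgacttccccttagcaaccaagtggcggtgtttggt

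To ask when axoneme genes are transcribed, their RNA was followed over the 9 germ cell populations. Of the 61 genes, 58 had a mean of at least 0.05 UMIs per 10000 over the 13 populations, and 57 of these were highest in mP/lP (17), D (11), RS (28) or ES (1). This holds for 33.6% of all 15250 genes that passed the same filter. The exception was Dnah11, highest in the spermatogonia labelled Nfya-CKO. Of the 3 genes under the filter, Cfap73 was highest in D (0.110), Rsph4a in undiff. SpG (0.160) and Dnah2os in the Nfya-CKO spermatogonia (0.0284). The median of all 61 genes was 0.138 UMIs per 10000 in undiff. SpG, 0.346 in diff. SpG, 0.0475 in pL, 0.199 in eL/L/Z, 0.633 in L/Z/eP, 0.839 in mP/lP, 1.02 in D, 1.249 in RS and 0.583 in ES. The group was thus lowest in pL among germ cells, and its level in L/Z/eP was already more than that in any spermatogonial population.

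**Figure D1:**
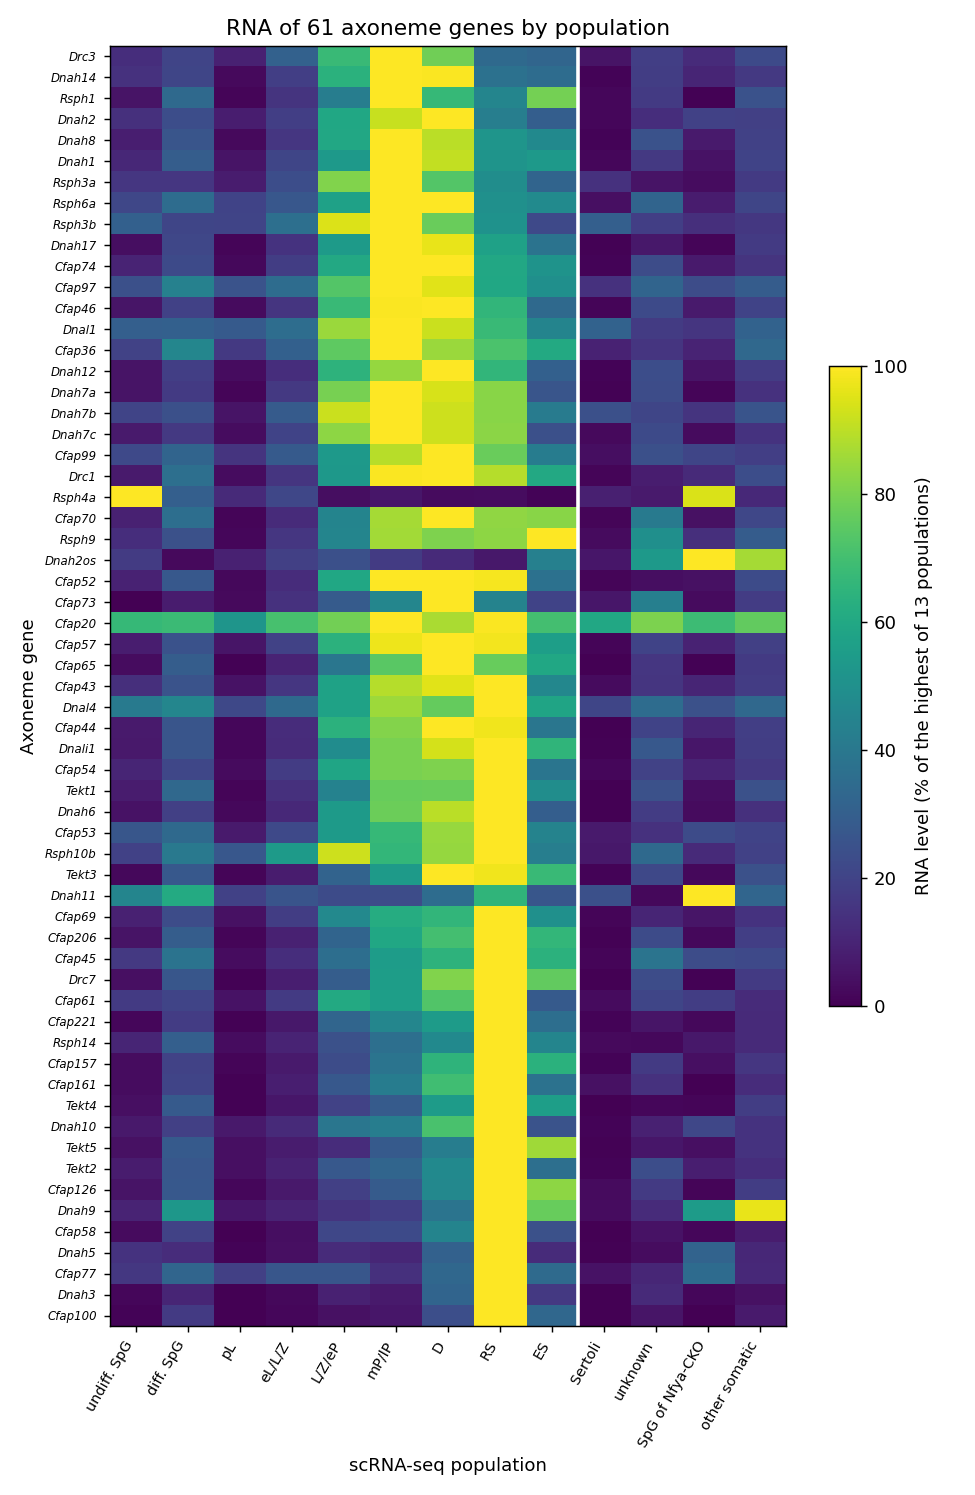
RNA level of the 61 axoneme genes (vertical axis) in the 13 populations (horizontal axis), each gene as a percent of its own highest population. Genes are ordered by the ratio of RS to mP/lP, and the white line parts the 9 germ cell populations from the other 4. The bright columns move from mP/lP and D at the top to RS at the bottom.

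Against pL, mP/lP had at least 2-fold more RNA of 52 of the 58 genes, on a scale of value + 0.1, and less of none (percentages over all genes were 15.6% higher and 19.2% lower). With a pseudocount of 1 far fewer axoneme genes passed, as given in the last section. On value + 0.1 the median ratio was 5.75, against 0.898 over all genes. It was largest in inner arm heavy chains (all 10 higher, median log2 ratio 3.54) and the central apparatus (all 8, 3.54), and smallest in outer arm heavy chains (2 of 5, 0.64). The 6 filtered genes under 2-fold were Cfap20, Cfap77, Dnah5, Dnah9, Dnah11 and Tekt4. The difference was spread over 2 steps, between populations that also differ in library and age. In eL/L/Z, 24 genes were at least 2-fold higher than in pL and none lower (4.41% and 0.59% of all genes). In L/Z/eP, 39 were higher than in eL/L/Z and none lower (5.45% and 3.97%), including all 10 inner arm heavy chains, all 3 genes of the nexin-dynein regulatory complex and 7 of 8 of the central apparatus, but 2 of 5 tektins and 3 of 7 other inner proteins. From L/Z/eP to mP/lP only Rsph1 was 2-fold higher and none lower (1.38% and 3.54% of all genes), with a median log2 ratio of 0.45. The steps on to D and RS held few calls: 2 genes were higher in D than in mP/lP and none lower (4.92% and 0.184%), and 6 were higher and 3 lower in RS than in D (10.6% and 3.34%). Leaving out spermatogonia, 50% of the highest level was first reached in L/Z/eP by 30 of the 61 genes, in mP/lP by 11, in D by 7 and in RS by 10; Cfap20 and Rsph4a were there in pL and Rsph10b in eL/L/Z. Among the 58 filtered genes the shares were 1.72% in pL, 50% in L/Z/eP, 19.0% in mP/lP, 10.3% in D and 17.2% in RS, against 58.0%, 8.49%, 4.57%, 2.67% and 13.3% of all filtered genes.

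Among the outer arm heavy chains, the motor subunits of the outer row, the paralogs differed widely. Dnah8, a heavy chain of sperm outer arms, had, in UMIs per 10000, 0.804 in undiff. SpG, 2.57 in diff. SpG, 0.260 in pL, 1.54 in eL/L/Z, 5.83 in L/Z/eP, 9.72 in mP/lP, 8.73 in D, 5.07 in RS, 4.62 in ES, 0.0778 in Sertoli cells, 2.45 in the unknown population, 0.692 in spermatogonia labelled Nfya-CKO and 1.89 in other somatic cells. It was highest in mP/lP and was at its lowest germ cell level in pL. Dnah17, its partner in sperm, had 0.115 in undiff. SpG, 0.677 in diff. SpG, 0.0459 in pL, 0.467 in eL/L/Z, 1.72 in L/Z/eP, 3.16 in mP/lP, 3.05 in D, 1.81 in RS, 1.20 in ES, 0.0140 in Sertoli cells, 0.209 in the unknown population, 0.0375 in spermatogonia labelled Nfya-CKO and 0.531 in other somatic cells. It followed the same course. Their counterparts in motile cilia were low: Dnah5 reached 0.404 in RS, Dnah9 0.600 in RS and Dnah11 0.117 in RS. Per kilobase of the longest annotated transcript, the highest level in the 9 germ cell populations that exclude Nfya-CKO spermatogonia was 0.583 for Dnah8 and 0.211 for Dnah17, against 0.0435 for Dnah9, 0.0258 for Dnah5 and 0.00833 for Dnah11, which had 0.0127 in the Nfya-CKO spermatogonia. Dnah5 and Dnah9 were therefore both low and late, with 0.0437 and 0.112 UMIs per 10000 in mP/lP.

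**Figure D2:**
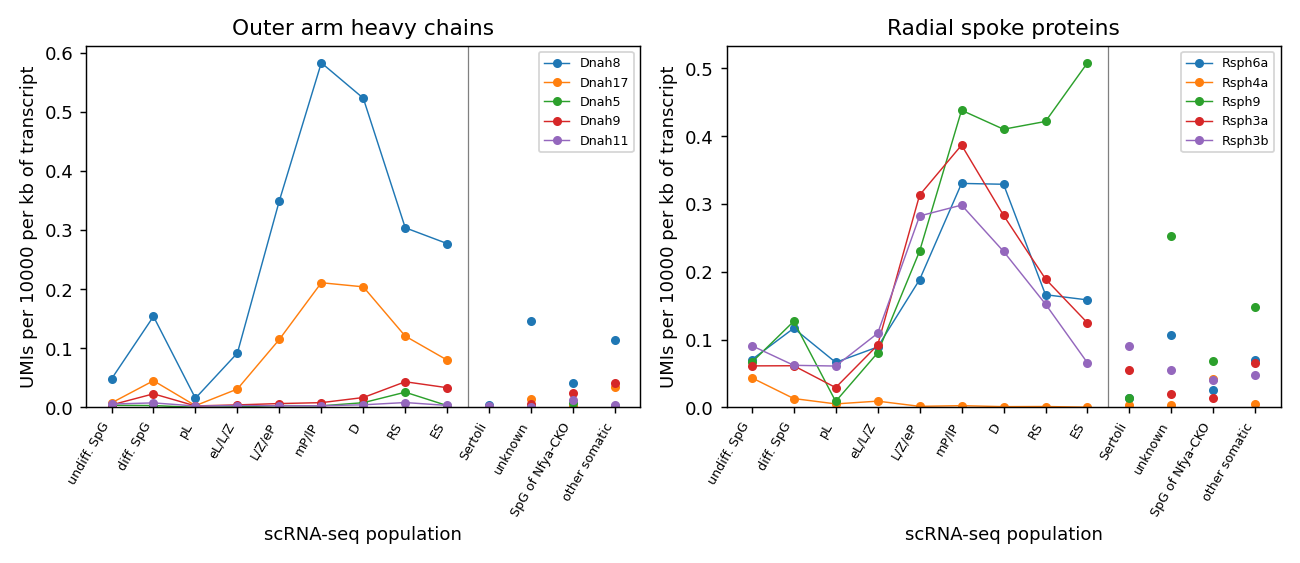
RNA per kilobase of transcript (vertical axis) in the 13 populations (horizontal axis) for outer arm heavy chains (left) and radial spoke proteins (right), 1 pooled value per point, with lines joining germ cell populations in order. Dnah8 and Dnah17 reach 0.583 and 0.211 in mP/lP and the other outer arm chains stay at or under 0.0435 in germ cells; Rsph4a is highest in undiff. SpG and the other spoke genes later.

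Inner arm heavy chains, with 10 genes, split by timing. Dnah14 had, in UMIs per 10000, 0.855 in undiff. SpG, 1.26 in diff. SpG, 0.164 in pL, 1.12 in eL/L/Z, 3.87 in L/Z/eP, 6.05 in mP/lP, 6.02 in D, 2.26 in RS and 2.14 in ES. Dnah2 reached 4.61 in D and Dnah1 1.85 in mP/lP, and all 3 were lower in RS (2.26, 1.98 and 0.954). Dnah3 went the other way, with 0.0820 in undiff. SpG, 0.525 in diff. SpG, 0.0159 in pL, 0.118 in eL/L/Z, 0.469 in L/Z/eP, 0.373 in mP/lP, 1.62 in D, 5.05 in RS and 0.830 in ES. Its level in RS was thus the highest by a wide margin. Dnah10 and Dnah6 were also highest in RS (1.42 and 1.72), and Dnah12 in D (2.87). The near-identical copies Dnah7a, Dnah7b and Dnah7c, all on chromosome 1, were highest in mP/lP, at 3.87, 4.05 and 5.44; since only reads with a unique alignment were kept, how their reads were split is uncertain.

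Of the light chains, Dnal1 and Dnal4 differed less between pL and mP/lP than Dnali1 (log2 ratio 3.24, against 1.44 in Dnal4). Dnali1, a light chain of inner arms, was highest in RS (1.37, against 0.0264 in pL), whereas Dnal1, which binds outer arm heavy chains, went from 0.257 in pL to 0.911 in mP/lP and Dnal4 from 0.142 to 0.654 in RS. In the nexin-dynein regulatory complex, Drc3 was highest in mP/lP (2.33) with 0.798 in RS, Drc1 was level from mP/lP to RS (0.577, 0.580 and 0.516), and Drc7 was highest in RS (1.26, against 0.701 in mP/lP).

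Radial spoke genes held the highest level per kilobase of the longest annotated transcript. This ranking rests on the lengths used, 1.19 kb for Rsph1 and 16.7 kb for Dnah8, which had more before division (9.72 in mP/lP). Rsph1, a spoke head protein, had, in UMIs per 10000, 0.475 in undiff. SpG, 3.06 in diff. SpG, 0.125 in pL, 1.36 in eL/L/Z, 3.79 in L/Z/eP, 8.95 in mP/lP, 5.99 in D, 4.07 in RS, 7.07 in ES, 0.162 in Sertoli cells, 1.54 in the unknown population, 0.0664 in spermatogonia labelled Nfya-CKO and 2.26 in other somatic cells, which is 7.52 per kilobase at its highest. It was high in mP/lP, lower in RS and high again in ES. The spoke head paralogs Rsph6a and Rsph4a ran in opposite directions. Rsph6a, the sperm form, went from 0.156 in pL to 0.778 in mP/lP. Rsph4a, the form of motile cilia, had 0.160 in undiff. SpG and 0.151 in the spermatogonia labelled Nfya-CKO, but 0.0481 in diff. SpG and no more than 0.0340 in any later germ cell population. Cfap61 and Cfap206, proteins of the spoke bases, were highest in RS (3.25 and 2.46). Rsph9, another spoke head protein, was the only gene highest in ES (0.491, against 0.423 in mP/lP). Rsph3a and Rsph3b, again near-identical copies, were highest in mP/lP (0.861 and 0.669). Rsph14 was highest in RS (0.472, against 0.172 in mP/lP). Rsph10b, which overlaps Pms2 on the same strand, had 1.254 in L/Z/eP, 0.900 in mP/lP and 1.36 in RS.

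In the central apparatus, Cfap65 had, in UMIs per 10000, 0.267 in undiff. SpG, 2.34 in diff. SpG, 0.0557 in pL, 0.774 in eL/L/Z, 3.09 in L/Z/eP, 5.87 in mP/lP, 7.89 in D, 6.05 in RS, 4.68 in ES, 0.0155 in Sertoli cells, 1.24 in the unknown population, 0.0414 in spermatogonia labelled Nfya-CKO and 1.35 in other somatic cells. It was highest in D. Cfap46 and Cfap74, of the projections of the central pair, were highest in D (5.60) and mP/lP (5.51), and Cfap70 and Cfap99 in D too (1.54 and 0.628). Cfap69, Cfap54 and Cfap221 were highest in RS (5.07, 2.21 and 1.249). Among tethers and anchors, Cfap43 had 0.799 in undiff. SpG, 1.51 in diff. SpG, 0.280 in pL, 0.935 in eL/L/Z, 3.39 in L/Z/eP, 5.24 in mP/lP, 5.65 in D, 5.90 in RS and 2.74 in ES. It was near its highest level from mP/lP to RS. Cfap44, which pairs with Cfap43 in the tether of an inner arm, was level over the same span (1.06, 1.31 and 1.28), as was Cfap57 (1.47, 1.51 and 1.48). Cfap100, which anchors an inner arm on the doublet, had 0.0408 in undiff. SpG, 0.719 in diff. SpG, 0.00175 in pL, 0.0773 in eL/L/Z, 0.193 in L/Z/eP, 0.257 in mP/lP, 1.01 in D, 4.19 in RS and 1.40 in ES. It was the most spermatid-weighted of all 61 genes.

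Tektins, filaments in the doublet lumen, were late as a family: Tekt1, Tekt2, Tekt4 and Tekt5 were highest in RS (1.01, 1.20, 0.301 and 0.604) and Tekt3 in D (0.358). The other inner proteins Cfap45, Cfap53, Cfap77, Cfap126 and Cfap161 were highest in RS as well. Cfap77 was the gene with the lowest ratio of mP/lP to L/Z/eP, with 0.217 in undiff. SpG, 0.442 in diff. SpG, 0.256 in pL, 0.360 in eL/L/Z, 0.361 in L/Z/eP, 0.186 in mP/lP, 0.451 in D, 1.35 in RS and 0.469 in ES. It thus dipped in mP/lP before RS. Cfap20, an inner junction protein, was the flattest of the group at 0.949 in undiff. SpG, 0.967 in diff. SpG, 0.736 in pL, 1.003 in eL/L/Z, 1.12 in L/Z/eP, 1.42 in mP/lP, 1.24 in D, 1.41 in RS, 0.995 in ES, 0.849 in Sertoli cells, 1.14 in the unknown population, 0.971 in spermatogonia labelled Nfya-CKO and 1.08 in other somatic cells. Its levels in Sertoli and other somatic cells lay within its germ cell range. Cfap52, its neighbour at the inner junction, went from 0.0173 in pL to 0.840 in D.

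Of the genes outside the role lists, Cfap36 and Cfap97 were highest in mP/lP (3.09 and 2.07) but present in every population, with 0.511 and 0.533 in pL. Cfap58, a protein of the tail that serves its assembly, had, in UMIs per 10000, 0.0287 in undiff. SpG, 0.201 in diff. SpG, 0.00279 in pL, 0.0394 in eL/L/Z, 0.219 in L/Z/eP, 0.231 in mP/lP, 0.464 in D, 1.03 in RS and 0.255 in ES. Among germ cell populations it was lowest in pL and highest in RS. Cfap157, named for a basal body protein, was likewise highest in RS (0.603, against 0.00913 in pL). Dnah2os, which lies antisense to Dnah2 and cannot be told apart from it without strand, was at or under 0.0284 in every population. In mm10, the genes on which the contrasts below turn lie at chr17:30624354-30877365 for Dnah8, chr7:119922671-120095280 for Dnah3, chr17:31255019-31277383 for Rsph1, chr1:74902071-74935599 for Cfap65, chr6:90403479-90428797 for Cfap100 and chr11:60353329-60394341 for Drc3, as GENCODE places whole genes; the Drc3 promoter printed above reaches past this start because RefSeq sets the start farther downstream. Dnah3 overlaps Lyrm1 over 34293 bases and Dnah8 overlaps Glo1 over 2518 bases, both on the opposite strand.

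Between late meiosis and spermatids the genes differed in direction. By a ratio of 1.5 in value + 0.1, 12 of the 61 genes had more RNA in mP/lP than in RS, 22 had more in RS, and 27 lay between. Among the 58 filtered genes these were 20.7%, 37.9% and 41.4%, against 26.7%, 23.4% and 49.9% of all genes. Tektins (4 of 5) and other inner proteins (4 of 7) were mostly of the second kind. Of the radial spoke genes 4 of 10 were of the first kind and 3 of the second, and of inner arm heavy chains 3 of 10 and 2. At 2-fold, 15 of the 58 filtered genes were higher in RS (17.6% of all genes) and 4 lower (9.36%). The largest log2 ratios were 3.59 for Cfap100, 3.45 for Dnah3, 2.35 for Cfap77, 1.81 for Dnah5 and 1.77 for Cfap58, a tail protein. The lowest were -1.44 for Drc3, -1.38 for Dnah14, -1.12 for Rsph1 and -1.06 for Dnah2. From RS to ES no gene was 2-fold higher and 19 were lower (all genes, 10.1% and 10%), among them 6 of 10 inner arm heavy chains.

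Other genes of the pathway ran alike. Of 58 further axoneme genes listed by name, 48 were in the matrix and all passed the filter. Of these, 41 were at least 2-fold higher in mP/lP than in pL and none lower, with a median log2 ratio of 2.38. Over all filtered genes the shares were 15.6% and 19.2%, which stand beside the counts of the next lists too. Of the 48, 46 were highest in mP/lP (12), D (7), RS (24) or ES (3), as were 33.6% of all filtered genes. Spag16, of the central apparatus, was highest in D (11.1), and Spag17, of the same structure, and Ccdc39, part of the ruler that sets the axonemal repeat, in mP/lP (7.91 and 8.64). Of the 14 dynein arm assembly factors, which preassemble arms in the cytoplasm, 9 were higher and none lower. Zmynd10 had 0.0624 in pL and 4.78 in mP/lP, Dnaaf3 0.0727 and 0.769, and Ruvbl2, a chaperone with many other clients, 0.547 and 2.42. Of 12 transcription factors of ciliary or germ cell programs 10 passed the filter, with 6 higher in mP/lP and 1, Taf7l, lower (3.05 in pL and 0.451 in mP/lP). Rfx2, an X-box factor, had 0.454 in pL and 3.13 in mP/lP, and Crem, an activator of spermatid genes, 0.406 in pL and 3.80 in RS. Foxj1, the master regulator of motile cilia, was at 0.0482 in mP/lP and 0.709 in RS. Of the NF-Y subunits, Nfyb was lower in mP/lP (0.838 in pL and 0.328), Nfyc had 1.73 and 0.820, and Nfya 0.414 and 0.601.

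Spermatogonia need a separate look, since the 2 wild-type or Cre/+ populations differ in source. From undiff. SpG to diff. SpG, 30 of the 58 genes were at least 2-fold higher and none lower (9.57% and 6.28% of all genes). In pL, 42 were lower than in diff. SpG and none higher (10.9% and 1.27%). Transcripts typical of spermatids moved with them. The list holds Prm1, Prm2, Tnp1 and Tnp2 of the condensing nucleus, Acrv1 and Spaca1 of the acrosome, the kinase Tssk6 and Akap4, which is itself a tail gene, of the fibrous sheath around the axoneme. Their sum was 0.900 in undiff. SpG, 12.6 in diff. SpG, 0.0676 in pL, 42.3 in RS and 135 in ES. Relative to RS, the median level in diff. SpG was 30.1% for the axoneme genes and 30.2% for the 8 transcripts. In undiff. SpG it was 10.2% and 2.14%, in pL 4.22% and 0.0835%, and in L/Z/eP 58.8% and 3.56%. The part of spermatid RNA in the diff. SpG levels was not tested. Directly from undiff. SpG to pL, 11 axoneme genes were at least 2-fold lower and none higher (6.19% and 2.42% of all genes), with Dnah14 at 0.855 and 0.164 and Cfap74 at 0.544 and 0.108.

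**Figure D3:**
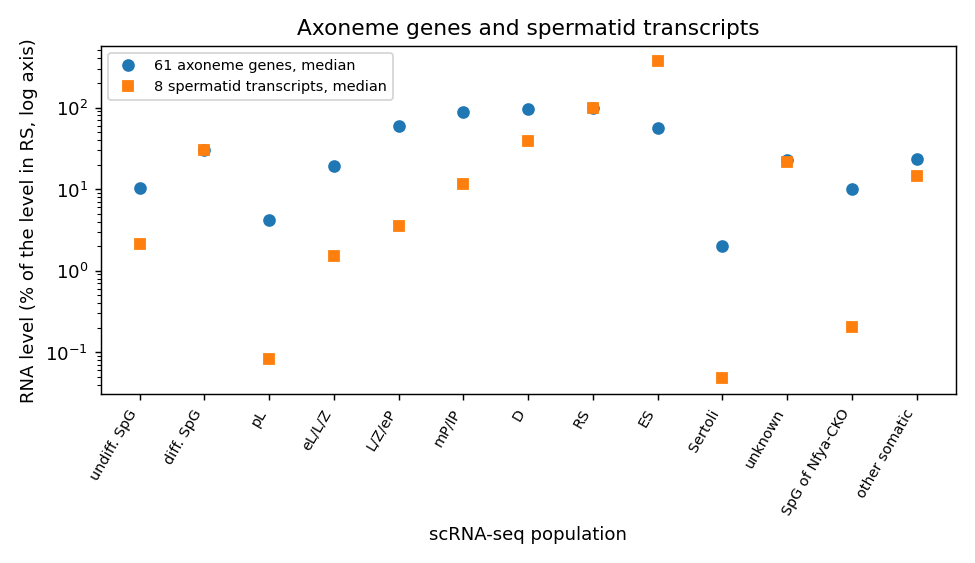
Median RNA level relative to RS (vertical axis, percent, log scale) of the 61 axoneme genes (circles) and of 8 spermatid transcripts (squares) in the 13 populations (horizontal axis). Both sit near 30.1% in diff. SpG, while in L/Z/eP the axoneme genes are at 58.8% and the spermatid transcripts at 3.56%.

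Both the group and the spermatid transcripts were lower in Sertoli cells than in other somatic cells. The 11 dpp library gave 87.8% of the 3265 Sertoli cells, and the Nfya-CKO library 78.8% of the 5883 other somatic cells. Age, genotype and library therefore cannot be told apart from cell type in this contrast. In Sertoli cells, 49 of the 61 genes (80.3%) had under 0.1 UMIs per 10000, against 64.0% of all 28125 genes, or 46 of the 58 filtered genes (79.3%) against 34.1%, beside a sum of 0.0473 for the 8 spermatid transcripts, and 6 had at least 0.2: Dnah7b (0.992), Cfap20 (0.849), Cfap36 (0.295), Cfap97 (0.294), Dnal1 (0.286) and Rsph3b (0.203). For Dnah7b, the copies Dnah7a and Dnah7c had 0.0179 and 0.133 there, and the scATAC-seq values in Sertoli cells were 21.7, 6.12 and 6.18. In other somatic cells, where the spermatid sum was 6.19, the median axoneme gene was at 23.2% of its level in RS. Dnah9 stood out there with 0.580, against 0.600 in RS and 0.0197 in Sertoli cells. The unknown population, of only 99 cells, had a median of 22.8% and a spermatid sum of 8.78. Markers of multiciliated cells were near 0 in every population for Sntn (at most 0.00373) and Mcidas (at most 0.0333), and of the other 6, Foxj1, Gmnc, Deup1 and Fam183b were highest in RS, Ccno in pL and Tppp3 in other somatic cells.

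Whether chromatin at the axoneme genes opens with transcription was asked from the scATAC-seq matrix. The study's methods define promoter accessibility as pooled coverage around the start site, but whether the matrix holds this or another region per gene is not given in the sources used here. Mitochondrial signal took 31.2% to 64.5% of a population's total, which lowers nuclear values unequally, so levels are set against other genes of the same population. In undiff. SpG, 45 of the 61 genes lay above the median of all nuclear genes, but only 11 above the median of genes that passed the RNA filter. Among those 15238 genes, the median percentile of the axoneme genes was 30.8 in undiff. SpG, 31.5 in diff. SpG, 26.7 in pL, 29.0 in eL/L/Z, 36.2 in L/Z/eP, 41.7 in mP/lP, 43.7 in D, 50.5 in RS and 39.2 in ES. The number above the median of expressed genes went from 8 in pL to 23 in mP/lP and 32 in RS. It was 11 in Sertoli cells.

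As the scATAC-seq values move less than RNA, a limit of 25% more (a ratio of 0.8 the other way) was used on value + 1. From L/Z/eP to mP/lP, 39 of the 61 genes were more accessible by this limit and none less (25.4% and 4.88% of all nuclear genes). With totals scaled without mitochondrial genes, 29 were more and 2 less accessible (23.7% and 11.2%). From mP/lP to RS, 58 were more accessible and none less by the deposited scale (80.1% and 0.988%), and 25 more and 3 less accessible without mitochondrial genes (35.8% and 11.6%), beside a mean TSS enrichment that was lower in RS (8.67) than in mP/lP; its part was not tested. Dnah3 was the clearest case, with 1.83 in undiff. SpG, 6.52 in diff. SpG, 1.32 in pL, 1.80 in eL/L/Z, 2.35 in L/Z/eP, 4.28 in mP/lP, 11.4 in D, 30.7 in RS and 9.27 in ES. It was far more accessible in RS than in any other germ cell population, as was its RNA. Cfap100 had 10.6 in undiff. SpG, 17.7 in diff. SpG, 12.8 in pL, 7.59 in eL/L/Z, 6.94 in L/Z/eP, 9.24 in mP/lP, 17.1 in D, 41.7 in RS and 30.7 in ES. Dnah17 opened earlier, from 2.73 in pL to 10.3 in L/Z/eP, 17.5 in mP/lP and 29.2 in RS. Rsph1 had 26.4 in undiff. SpG, 30.2 in diff. SpG, 13.8 in pL, 31.1 in L/Z/eP, 49.7 in mP/lP and 59.2 in RS. Without mitochondrial genes L/Z/eP and undiff. SpG lay farther apart, at 85.7 and 44.5, with 20.1 in pL, 125 in mP/lP and 99.0 in RS, so that RS was then below mP/lP. In L/Z/eP against undiff. SpG, 2 were more and 46 less accessible (4.54% and 62%), or 17 and 19 without mitochondrial genes (30.2% and 29.5%). In mP/lP against undiff. SpG, 11 were more and 27 less accessible (12.6% and 50.4%), or 30 and 15 without mitochondrial genes (38.2% and 27.8%). In RS against undiff. SpG, 34 were more and 7 less accessible (43.5% and 26.2%), or 34 and 7 without mitochondrial genes (44.2% and 26.9%).

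**Figure D4:**
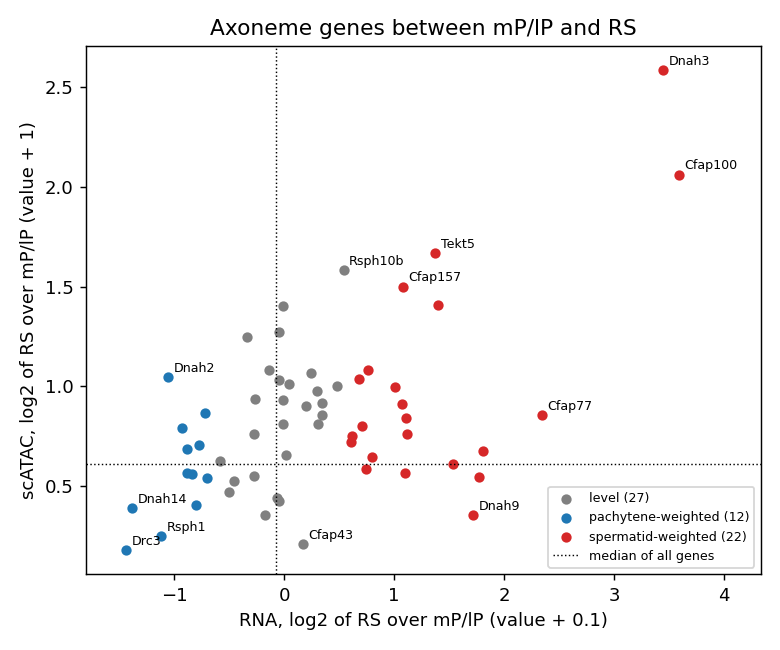
Log2 ratio of RS to mP/lP in RNA (horizontal axis) and scATAC-seq (vertical axis) for the 61 axoneme genes, coloured by the RNA class at 1.5-fold; dotted lines mark the medians of all genes. Dnah3 and Cfap100 are the 2 points at the upper right, with RNA ratios of 3.45 and 3.59, and Drc3 is at the lower left.

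The 22 genes with more RNA in RS had a median scATAC-seq ratio of RS to mP/lP of 1.77, the 12 with more in mP/lP of 1.48 and the 27 between of 1.87, beside 1.53 for all genes. Spearman's rho between the RNA and scATAC-seq log2 ratios was 0.36 over the 58 genes and 0.38 over 15238 genes; these points are genes of the same nuclei and no p is given. Within a gene, over the 9 germ cell populations, rho between RNA and accessibility ran from -0.80 (Cfap99) to 0.97 (Dnah3) on the deposited scale. It was above 0.5 for 17 of the 58 filtered genes and below 0 for 24, with a median of 0.24 (all genes, 34.5% and 30.4%, median 0.30). The value moved with the scaling: without mitochondrial genes 34 were above 0.5 and 9 below 0, with a median of 0.67 (all genes, 37.6% and 28.1%, median 0.33). The 9 populations of a gene share libraries, and no p is given. Tekt4 (0.92, and 0.93 without mitochondrial genes), Dnah17 (0.90 and 0.93) and Rsph1 (0.87 and 0.98) were near the upper end on either scale. Cfap43 (-0.67 and -0.82) and Dnah9 (-0.47 and -0.62) stayed below 0: Cfap43 had 19.8 in undiff. SpG and 8.64 in mP/lP while its RNA went the other way, and Dnah9 had 40.8 and 9.37. Rsph4a was most accessible where its RNA was highest, with 23.1 in undiff. SpG, 21.6 in the spermatogonia labelled Nfya-CKO and 2.70 in L/Z/eP.

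Open chromatin before transcription was looked at in the 13 genes with under 0.1 UMIs per 10000 in undiff. SpG and at least 1 in a later germ cell population. Of these, 10 lay above the median of all nuclear genes in undiff. SpG (12.1). Dnali1, Dnah6 and Tekt2 had 30.3, 28.1 and 27.6, higher than 73.8%, 70.8% and 70.2% of those genes. The 3 below it were Cfap100 (10.6), Dnah10 (10.6) and Dnah3 (1.83), the last of which was higher than only 27.6% of genes. Against the median of genes that passed the RNA filter (28.9), only Dnali1 lay above.

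The last comparison set the spermatogonia labelled Nfya-CKO against undiff. SpG, which differ in genotype but also in age and library. In RNA, 2 of the 58 genes were at least 2-fold higher and 3 lower (4.09% and 3.08% of all genes), with a median log2 ratio of -0.16 against 0.01. On value + 0.1, the share of axoneme genes past 2-fold was thus near that of all genes. With a pseudocount of 0.01 more axoneme genes passed and with 1 fewer, as given in the last section. The lower genes were Rsph1 (0.0664 against 0.475, log2 ratio -1.79), Cfap65 (0.0414 against 0.267, -1.38) and Dnah7a (0.0460 against 0.208, -1.08). The higher ones were Dnah9 (0.330 against 0.0594, 1.43) and Dnah10 (0.302 against 0.0992, 1.01). Dnah11 had its highest level of all populations here (0.179 against 0.0812). Spermatid transcripts summed to 0.224 against 0.900. Sertoli markers summed to 27.3 against 4.30, of which Clu made 22.8 and 2.50. Leydig markers summed to 41.9 against 0.188, of which Insl3 made 39.8 and 0.0640. The part of these transcripts was not tested. In these spermatogonia 7 axoneme genes had at least 0.5 UMIs per 10000, against 10 in undiff. SpG (all filtered genes, 38.2% and 37.0%): Cfap20 (0.971), Dnah2 (0.885), Dnah8 (0.692), Dnah14 (0.625), Cfap43 (0.620), Dnah7b (0.602) and Cfap61 (0.589).

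The count depends on the control. Against diff. SpG, none of the 58 genes was 2-fold higher and 30 were lower (6.86% and 10.5% of all genes), beside a spermatid sum of 12.6 in that control. Against pL, 11 were higher and none lower (9.05% and 4.73%).

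In scATAC-seq, 11 of the 61 genes were less accessible by the same limit in the spermatogonia labelled Nfya-CKO than in undiff. SpG and 6 more (21.1% and 21.6% of all nuclear genes), with a median ratio of 0.960 against 0.981. The mean TSS enrichment, a measure of signal over background at start sites, was 7.99 in the Nfya-CKO spermatogonia, the lowest of the 13 populations, against 12.7 in undiff. SpG, and its part was not tested. Scaled without mitochondrial genes, 8 were less and 14 more accessible (13.9% and 30.9%). Drc3 had the lowest ratio (0.548): its signal was 79.3 in undiff. SpG, 102 in diff. SpG, 94.4 in pL, 87.8 in eL/L/Z, 64.0 in L/Z/eP, 75.2 in mP/lP, 72.6 in D, 85.3 in RS, 72.5 in ES, 72.0 in Sertoli cells, 48.5 in the unknown population, 43.0 in spermatogonia labelled Nfya-CKO and 54.3 in other somatic cells. The value in the Nfya-CKO spermatogonia was the lowest of the 13 populations, yet its RNA was 0.288 against 0.306. Cfap74 (0.643), Rsph1 (0.667), Cfap20 (0.678) and Dnah12 (0.679, from a low signal of 2.13) followed. Of these, Rsph1 was also lower in RNA, and Cfap65 (0.740) was lower in both as well; against pL, the scATAC-seq log2 ratio had the other sign for Rsph1 (0.30), Cfap65 (0.0639) and Cfap74 (0.19). Rsph10b (1.47), Dnah2 (1.39), Dnah10 (1.39), Cfap157 (1.36) and Cfap100 (1.35) were more accessible. So was Dnah2os (1.996), whose ratio was the highest but rests on a low signal of 2.40 against 0.706. Set against diff. SpG instead, Dnah10 (15.1 against 18.1) and Cfap100 (14.7 against 17.7) had the lower value in the Nfya-CKO spermatogonia. The 23 genes with CCAAT in the promoter had a median ratio of 0.953 and the 27 without it 1.05. No such split of all genes stands beside these medians, and the part of CCAAT was not tested. With diff. SpG as the control, 18 genes were less and 12 more accessible (38.6% and 30.3%), and with pL 10 and 19 (35.4% and 30.3%). Cfap36, whose promoter is printed above with that of Drc3, had a ratio of 0.736.

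**Figure D5:**
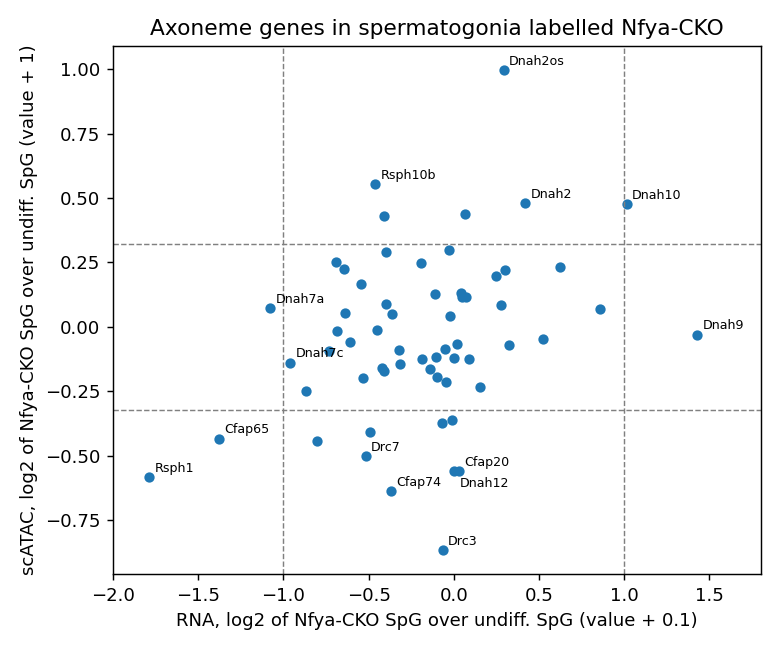
Log2 ratio of the spermatogonia labelled Nfya-CKO to undiff. SpG in RNA (horizontal axis) and scATAC-seq (vertical axis), 1 point per axoneme gene, with dashed lines at 2-fold in RNA and at the 25% limit in scATAC-seq. Rsph1 and Cfap65 are the points lower in both, Dnah10 is past both lines on the higher side, and Drc3 is lower in scATAC-seq alone.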

How the data were processed

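The authors isolated nuclei of whole testis for the BD Rhapsody system, aligned RNA reads to mm10 with STAR 2.7.10b (unique alignments only), collapsed UMIs, and, in Seurat 5.2.1, kept cells that had 500 genes or more and a mitochondrial share below 5%. Fragments were aligned with BWA 0.7.12 and filtered in ArchR 1.0.3, tools and versions being those of the submitters' processing notes. Doublets were removed by the authors, with DoubletFinder for RNA and ArchR for scATAC-seq. The authors deposited UMI and fragment counts per cell and a TSS enrichment ratio, and 1 matrix per assay. Its values are natural logs of a population mean to which 1 was added, and the means sum to 10000; both were read from the values. Matrix values were turned back with Python 3.11.15, numpy 2.4.6 and pandas 2.3.3, the scATAC-seq sum being set to 1000000. The mean of per-cell levels carries no counting interval.

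RNA ratios used value + 0.1 and a 2-fold limit, over genes whose mean was 0.05 or more; scATAC-seq ratios used value + 1 and a 25% limit. Calls are by size alone. Transcript lengths are those of GENCODE vM21, in which all 61 symbols matched; 17 of the genes overlap a protein-coding gene there (Cfap43, Cfap61, Cfap100, Dnah3, Dnah8, Dnah14 and Dnah17 among those named), and whether counting used strand is not given in the sources used here. All 57 promoter sequences of the genes matched the genome at their coordinates. Named genes were the 3 highest of each role list, the 5 with the largest and smallest ratio of mP/lP to L/Z/eP, up to 5 each way past the limits in Nfya-CKO spermatogonia, those highest outside the 9 germ cell populations (Nfya-CKO spermatogonia not among the 9) and the 3 highest of other lists; others were named after their values were seen. The members and lists were chosen with earlier results of these data known. The contrasts of mP/lP with pL, RS with mP/lP and pL with undiff. SpG, the rank among expressed genes and the rescaled rho within genes were added after the data were seen. Alternatives covered pseudocounts, filters, scaling and controls. Another 22 deposited columns were left aside.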

Additional observations from a re-analysis of the deposited data

How the results depend on the processing

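The 57 genes highest in mP/lP or later became 51 with a mean of at least 0.2 and 58 with no filter, and stayed 57 when scaled without mitochondrial genes, without antisense symbols or without the ES column. Higher in mP/lP than in L/Z/eP were 2 genes with a pseudocount of 0.01, 20 at 1.5-fold and 0 at 3-fold, against 1; higher in mP/lP than in pL were 26 with a pseudocount of 1, against 52. With pseudocounts of 0.01 and 1, the median log2 ratio was 1.40 and 0.28 from undiff. SpG to diff. SpG (1.04 with 0.1), -2.71 and -0.35 on to pL (-1.58), 1.75 and 0.17 on to eL/L/Z (0.85), and 1.64 and 0.42 on to L/Z/eP (1.20), so the size of these steps rests on how low levels are treated while the direction does not. For the spermatogonia labelled Nfya-CKO, RNA counts of 2 higher and 3 lower became 5 and 14 with a pseudocount of 0.01, 0 and 0 with 1, 0 and 30 against diff. SpG, and 11 and 0 against pL. No share of all genes stands beside the counts at other pseudocounts, filters or fold limits. Those counts therefore do not set the axoneme genes apart from other genes. The 11 genes lower in scATAC-seq became 18 against diff. SpG and 6 with a pseudocount of 10. The scATAC-seq ratio reversed for Cfap100 (-0.25) and Dnah10 (-0.25) against diff. SpG and for Cfap65 (0.0639), Cfap74 (0.19) and Rsph1 (0.30) against pL, as log2 values; the cause was not tested. The median log2 scATAC-seq ratio of mP/lP to undiff. SpG was -0.23, and 0.31 when scaled without mitochondrial genes. The 45 genes above the median gene in undiff. SpG became 11 among genes that passed the RNA filter. The median rho of RNA and accessibility within a gene, 0.24, was 0.67 without mitochondrial genes. The other 39 alternatives of these results stayed within 1.5-fold of a count or moved a median ratio by no more than 25%, although the median log2 scATAC-seq ratio of the Nfya-CKO spermatogonia, -0.06, was 0.11 against pL and 0.07 without mitochondrial genes, and that of RS to D in RNA, 0.08, was -0.02 over genes with a mean of at least 0.2. No paired analysis was possible because each condition is 1 library, and the pooled matrix allows no library to be left out; Nfya-CKO spermatogonia rest on 491 cells.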
